A study of Rattus norvegicus with 9 samples.

Results

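The endothelin system was described in the rat prostate by the mRNAs of its 3 ligands (Edn1, Edn2 and Edn3), its receptors (Ednra and Ednrb) and the converting enzyme Ece1. Members were found by the RefSeq accession that the array files give for each probe, not by a measured value, although the 6 genes were picked for description with earlier results of these data known. Of the 6 genes, 5 had a probe and together they had 6 probes, out of 30356 probes and 15163 genes with a symbol. Edn2 was matched by 0 of the 17998 probes that could be named. Unnamed probes may target it, and it is not analysed here.

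Gene expression was measured with one-colour Agilent rat arrays in whole prostates of male Sprague Dawley rats, with 3 arrays per group. All rats were 6 weeks old when purchased. Sham rats underwent a sham operation and received corn oil subcutaneously and vehicle orally. BPH rats were castrated, were injected subcutaneously with dihydrotestosterone (3 mg/kg, once daily for 4 weeks) and received oral vehicle, and BPH+ghrelin rats underwent the same castration and injections and received rat ghrelin by gavage (20 nmol/kg, once daily) for the last 2 weeks. Castration and dihydrotestosterone are thus shared by both groups with BPH, and ghrelin, a peptide hormone of the stomach, separates them. In sham rats, testicular androgens stayed in place, so BPH and sham differ by castration and by dihydrotestosterone together.

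Endothelins are short peptides that are cut from larger precursors, first by furin-like proteases and then by endothelin-converting enzyme. Endothelin-1 contracts smooth muscle through the ETA receptor, whereas the ETB receptor also removes endothelin from tissue and, on endothelial cells, releases nitric oxide. In the prostate, endothelin-1 contracts the smooth muscle of the stroma, and both receptors are present in the gland.

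Promoter sequences are shown for Edn1, whose mRNA was lower after ghrelin, for Ednrb, whose group means followed a similar order, and for Ece1. The mean of Ece1 was highest in BPH+ghrelin, although its difference from BPH was not called. Each is the 250 bases upstream of the gene's start in RefSeq (assembly GRCr8), written 5′ to 3′ in the direction of the gene, with matches to the searched motifs in capitals. The windows are chr17:22666688-22666937 (minus strand) for Edn1, chr15:87086766-87087015 (minus strand) for Ednrb and chr5:155360781-155361030 (plus strand) for Ece1.
Edn1: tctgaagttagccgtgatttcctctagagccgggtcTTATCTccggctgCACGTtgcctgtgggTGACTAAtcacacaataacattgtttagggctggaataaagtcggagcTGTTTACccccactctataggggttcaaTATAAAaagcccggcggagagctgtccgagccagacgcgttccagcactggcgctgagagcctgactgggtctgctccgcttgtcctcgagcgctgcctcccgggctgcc
Ednrb: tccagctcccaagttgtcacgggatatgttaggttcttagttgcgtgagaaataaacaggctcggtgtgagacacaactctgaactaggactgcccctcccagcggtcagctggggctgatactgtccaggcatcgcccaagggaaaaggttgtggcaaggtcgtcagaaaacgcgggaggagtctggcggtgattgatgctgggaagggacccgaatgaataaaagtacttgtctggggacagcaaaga
Ece1: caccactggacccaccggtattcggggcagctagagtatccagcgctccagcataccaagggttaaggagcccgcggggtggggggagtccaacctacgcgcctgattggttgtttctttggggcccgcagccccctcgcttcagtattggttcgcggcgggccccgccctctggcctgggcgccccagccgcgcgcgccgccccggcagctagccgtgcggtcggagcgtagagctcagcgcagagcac
The motifs searched on both strands were TATAAA (the core element bound by TBP, in 13.2% of 27457 rat promoters of this length), TGACTAA (a variant of the AP-1 site, 1.96%), TGACTCA (AP-1, 4.06%), AGATAA (the site of GATA factors, 10.1%), ACGTG (HIF, 16.9%), GTAAACA (FOXO, 3.29%) and AGAACA (core of the androgen receptor site, 17.2%). The matches did not overlap one another. In Edn1, TATAAA lay 110 to 105 bases before the start, GTAAACA (read as TGTTTAC) 138 to 132 bases before it, and TGACTAA 186 to 180 bases before it. ACGTG (read as CACGT) was found 201 to 197 bases before the start and AGATAA (read as TTATCT) 214 to 209 bases before it. Neither TGACTCA nor AGAACA was found in the Edn1 window, and 0 of the 7 motifs were found in the windows of Edn2, Ednra, Ednrb and Ece1. These are matches of letters, not sites shown to be bound, and an absent match says only that these letters are not in this window.

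Signals are log2 values after quantile normalization over the 9 arrays. A call means an adjusted p under 0.05 in limma (Benjamini-Hochberg over all genes tested). Of the BPH+ghrelin arrays, array 1 shared a scan with the 3 BPH arrays, and arrays 2 and 3 shared another with sham arrays 1 and 2, and sham array 3 was scanned apart. No scan held both BPH and sham arrays, so that comparison has no within-scan value, and its fit with the scan as a block rests on the BPH+ghrelin arrays of both scans. Sham array 2 was the dimmest array, with a 75th percentile of the raw signal of 327 against 587 to 1065 on the others, and 61.4% of its probes were well above background, against 69.5% to 75.05%. In each group, 1 array lay between its other 2 arrays at 69.7% to 74.4% of 20964 probes (BPH 2, BPH+ghrelin 2 and sham 3), whereas the other 6 arrays did so at 9.36% to 16.7%. Whether the arrays of a group are separate animals was not tested, and every SE and p counts them as such. Without these 3 arrays limma called 0 endothelin genes. The calls of Mme, Rgs5, Trpc6, Cldn5, Pecam1, Myh11, Lum, Vim, Kcnj8 and, against BPH, Ptprc given below were lost too (adjusted p = 0.430 to 0.949). In BPH against sham, those of Pbsn, Krt14, Adgre1, Svs3a, Svs3b, Svs4, Ckm and Tnni2 were also lost (adjusted p = 0.368 to 0.709). The androgen-dependent prostate genes Pbsn and Msmb and the prostate genes Hoxb13 and Sbp were well above background on 9 of 9 arrays, although Pbsn and Msmb differed between the groups (given with the epithelial markers).

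Edn1, the ligand endothelin-1, was well above background on 9 of 9 arrays and was printed as 10 spots on each array. The log2 signals of Edn1 were 6.27, 6.25 and 6.21 in BPH arrays 1 to 3. They were 4.88, 4.44 and 4.06 in BPH+ghrelin arrays 1 to 3 and 6.22, 5.20 and 5.87 in sham arrays 1 to 3. The BPH+ghrelin arrays lay below all 6 other arrays, and the sham arrays ranged from the level of BPH to a level nearer that of BPH+ghrelin. The lowest sham value was that of sham array 2. Between the 10 spots of an array, the SD was 0.036 to 0.17 on the log2 scale (9 spots on BPH array 3, where 1 outlier spot was left out), and the highest spot of any BPH+ghrelin array was 5.09, below the lowest spot of any BPH array at 6.14.

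**Figure D1:**
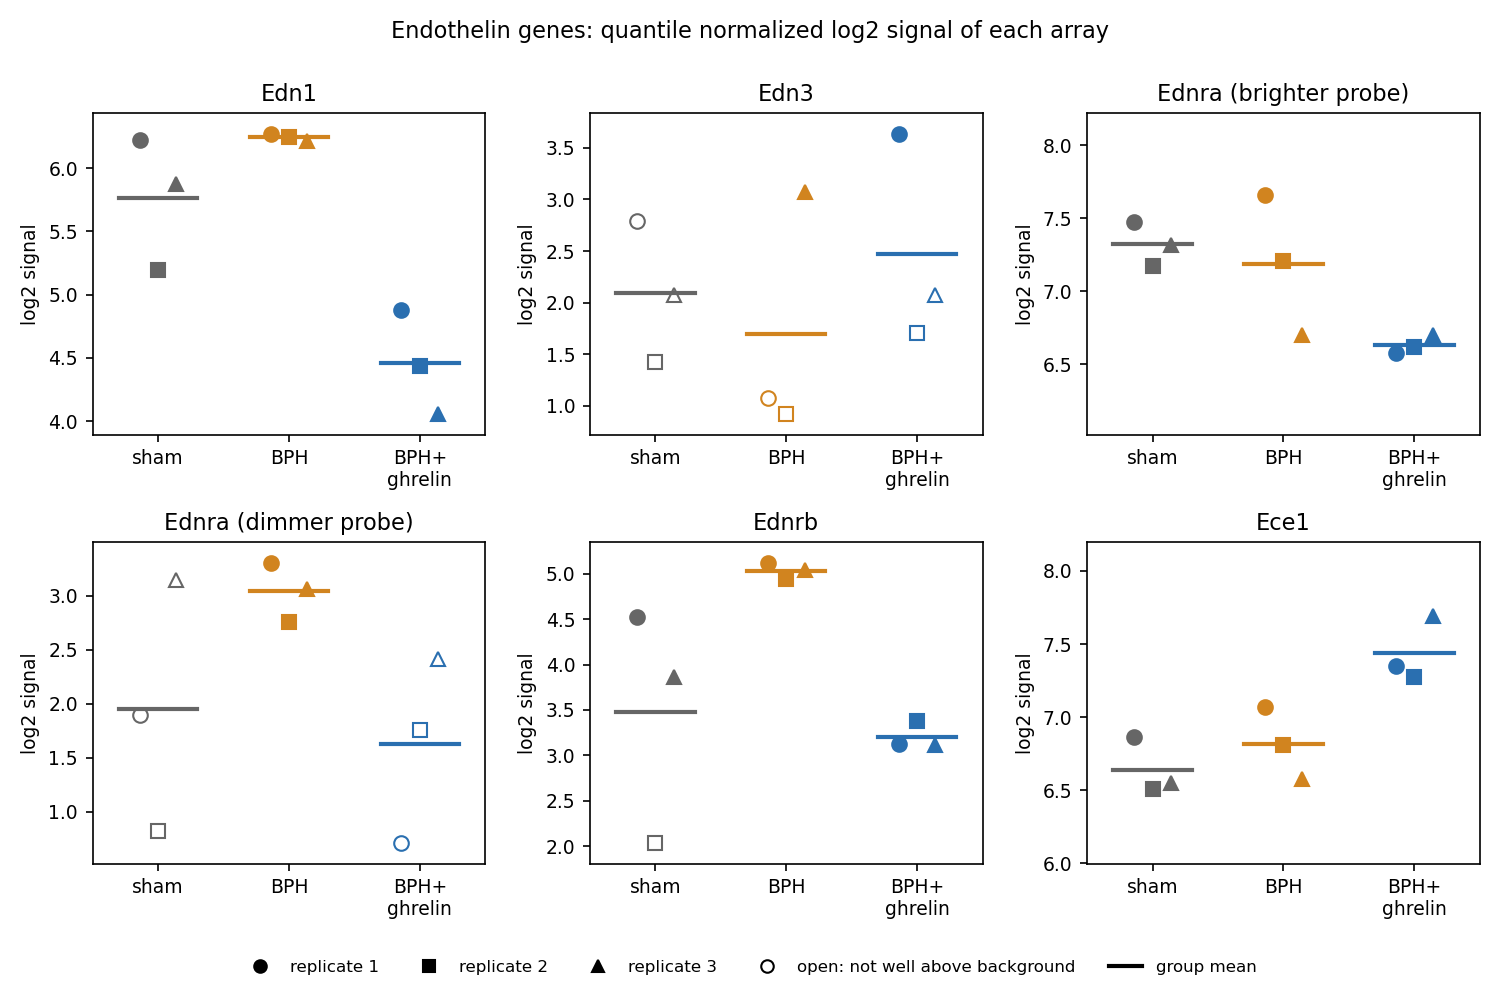
Normalized log2 signal (y axis, one scale per panel) of the 6 probes of the endothelin genes in sham, BPH and BPH+ghrelin (x axis), with one point per array, group means as lines and open points for signals not well above background. For Edn1, the 3 BPH+ghrelin points (4.06 to 4.88) sit below all BPH points (6.21 to 6.27), and for Ece1 they sit above them (7.28 to 7.69 against 6.58 to 7.07).

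**Figure D2:**
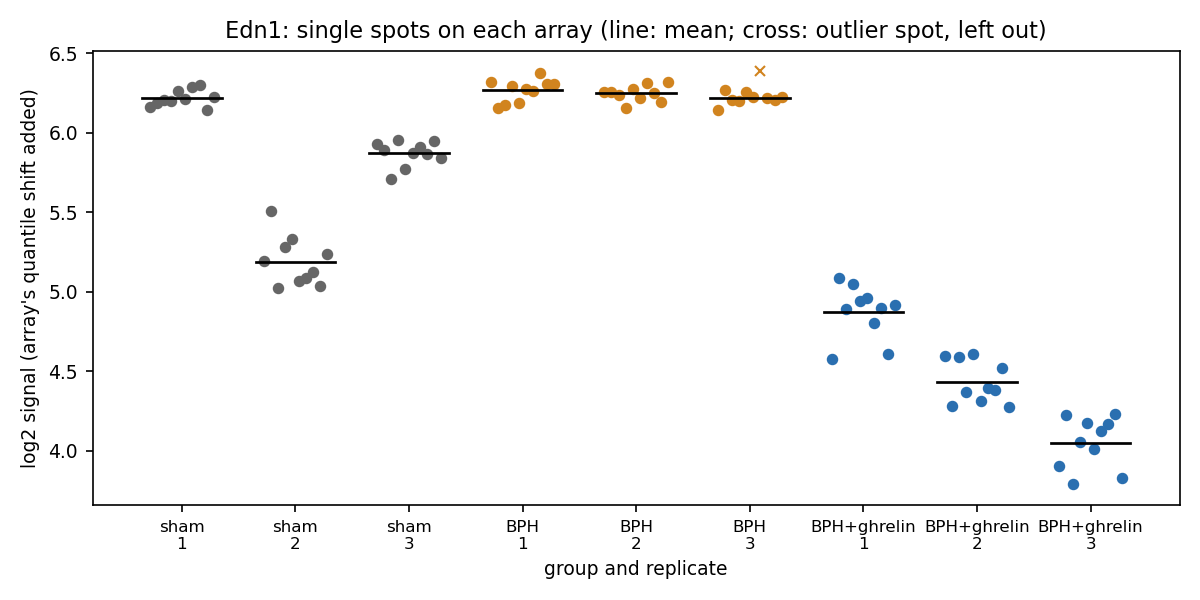
Log2 signal (y axis) of each of the 10 Edn1 spots on each array (x axis, group and replicate), with the array mean as a line and the outlier spot left out of BPH array 3 as a cross. The spread within an array (SD 0.036 to 0.17) is small against the distance between the BPH and BPH+ghrelin arrays.

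Edn1 was 3.44-fold lower in BPH+ghrelin than in BPH (log2 difference -1.78, SE 0.28, 95% interval -2.44 to -1.13, limma adjusted p = 0.0316), and it fell with all 3 arrays of one group below all 3 of the other. It ranked 134 of 19749 genes by p. Edn1 was also 2.47-fold lower in BPH+ghrelin than in sham (log2 difference -1.30, SE 0.28, 95% interval -1.95 to -0.65, limma adjusted p = 0.0369). Both comparisons use the same BPH+ghrelin arrays, so they are not independent of each other. Between BPH and sham, Edn1 differed by 0.48 (95% interval -0.17 to 1.13, limma adjusted p = 0.308), and the groups overlapped.

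The Edn1 difference between BPH+ghrelin and BPH kept its direction when an array was left out, whereas its call was lost. Without any single one of the 6 arrays compared (BPH 1, 2 or 3 or BPH+ghrelin 1, 2 or 3), the log2 difference was -2.0 to -1.58, with unadjusted p of 0.000212 to 0.00119, but the limma adjusted p was 0.0513 to 0.166, each time above the threshold. Within the scan that held both groups, BPH+ghrelin array 1 was lower than the mean of the 3 BPH arrays by a log2 difference of -1.36. With normexp background correction, which adds an offset, the difference between BPH+ghrelin and BPH was -0.63 with a limma adjusted p of 0.0335. This call was lost with the scan as a block and with the replicate numbers as a block (values given with the processing alternatives). Against sham, the within-scan difference of Edn1 was -1.46 (2 arrays against 2), and the call was lost without any 1 array other than sham array 2 (limma adjusted p = 0.0509 to 0.135), while without sham array 2 the difference was -1.60 (adjusted p = 0.0110). Of 11 other settings, 6 ended the call of Edn1 against sham (adjusted p up to 0.710), among them normexp, no filter on dim probes and both blocks. In whole tissue, fewer cells of a type and less RNA per cell cannot be told apart.

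Edn3, the ligand that acts mainly through the ETB receptor, was near the background. Its log2 signals were 1.08, 0.92 and 3.08 in BPH, 3.63, 1.71 and 2.07 in BPH+ghrelin and 2.79, 1.42 and 2.07 in sham. The probe was well above background on 1 BPH array (BPH 3), 1 BPH+ghrelin array (BPH+ghrelin 1) and 0 sham arrays, so it was not tested, and the 3 groups overlapped throughout.

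Ednra encodes the ETA receptor and had 2 probes. The log2 signals of its brighter probe were 7.66, 7.20 and 6.70 in BPH, 6.57, 6.62 and 6.70 in BPH+ghrelin and 7.47, 7.17 and 7.32 in sham. The BPH+ghrelin arrays lay close together (SD 0.063) and below all arrays of both other groups, although BPH array 3 and BPH+ghrelin array 3 are equal when rounded. BPH and sham overlapped. The log2 difference of BPH+ghrelin from BPH was -0.56 (SE 0.23, limma adjusted p = 0.209) and from sham -0.69 (SE 0.23, adjusted p = 0.109), and that of BPH from sham was -0.13 (SE 0.23, adjusted p = 0.730). The dimmer probe read 3.30, 2.75 and 3.06 in BPH and was well above background on those 3 arrays only. It read 0.71, 1.76 and 2.41 in BPH+ghrelin and 1.90, 0.82 and 3.14 in sham. It passed the filter on dim probes through the BPH arrays alone, so no difference is given from it.

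Ednrb encodes the ETB receptor. Its log2 signals were 5.12, 4.95 and 5.04 in BPH, 3.12, 3.38 and 3.11 in BPH+ghrelin and 4.52, 2.04 and 3.87 in sham. The BPH arrays lay close together (SD 0.086) and above all arrays of the other 2 groups, the BPH+ghrelin arrays were also close together, and the sham arrays were widely spread (SD 1.29). Sham array 2, the dimmest array, was not well above background at this probe, whereas the other 8 arrays were. Ednrb was 3.55-fold lower in BPH+ghrelin than in BPH by the group means (log2 difference -1.83, SE 0.53, 95% interval -3.05 to -0.61), with a limma adjusted p of 0.118. The spread of the sham arrays enters this fit over 9 arrays. With the 6 arrays of BPH and BPH+ghrelin normalized and fitted alone, the difference was -1.86 with a limma adjusted p of 0.00770. Within the shared scan, BPH+ghrelin array 1 differed from the BPH mean by -1.91. With normexp background correction the difference between BPH+ghrelin and BPH was -0.34 (adjusted p = 0.0893).

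Between BPH and sham, the mean of Ednrb was 2.95-fold that of sham (log2 difference 1.56, SE 0.53, limma adjusted p = 0.122). Without sham array 1 the difference was 2.08 with a limma adjusted p of 0.0296, and over the 6 possible omissions of 1 array it ranged from 0.85 to 2.08. BPH+ghrelin and sham differed in Ednrb by -0.27 (95% interval -1.49 to 0.95, limma adjusted p = 0.804). Without sham array 2 that difference was -0.997 (adjusted p = 0.0282), and without sham array 1 it was 0.25 (adjusted p = 0.735), so the sign and the call rested on single sham arrays.

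Ece1 encodes the enzyme that cuts big endothelin-1 to the active peptide. Its log2 signals were 7.07, 6.81 and 6.58 in BPH, 7.35, 7.28 and 7.69 in BPH+ghrelin and 6.87, 6.51 and 6.55 in sham. All 3 BPH+ghrelin arrays lay above all 6 other arrays, and BPH and sham overlapped. In BPH+ghrelin, Ece1 was 1.74-fold higher than in sham (log2 difference 0.80, SE 0.18, 95% interval 0.38 to 1.22, limma adjusted p = 0.0425) and 1.54-fold higher than in BPH by the group means (0.62, SE 0.18, 95% interval 0.20 to 1.04), the latter with a limma adjusted p of 0.122. The within-scan differences were 0.80 from sham (2 arrays against 2) and 0.53 from BPH (1 array against 3). The call against sham was kept without sham array 1 (difference 0.91, limma adjusted p = 0.0359) and lost without any other single array (BPH+ghrelin 1, 2 or 3 or sham 2 or 3), with differences of 0.67 to 0.88 and adjusted p of 0.0594 to 0.151. BPH and sham differed by 0.18 (95% interval -0.24 to 0.60, adjusted p = 0.546).

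**Figure D3:**
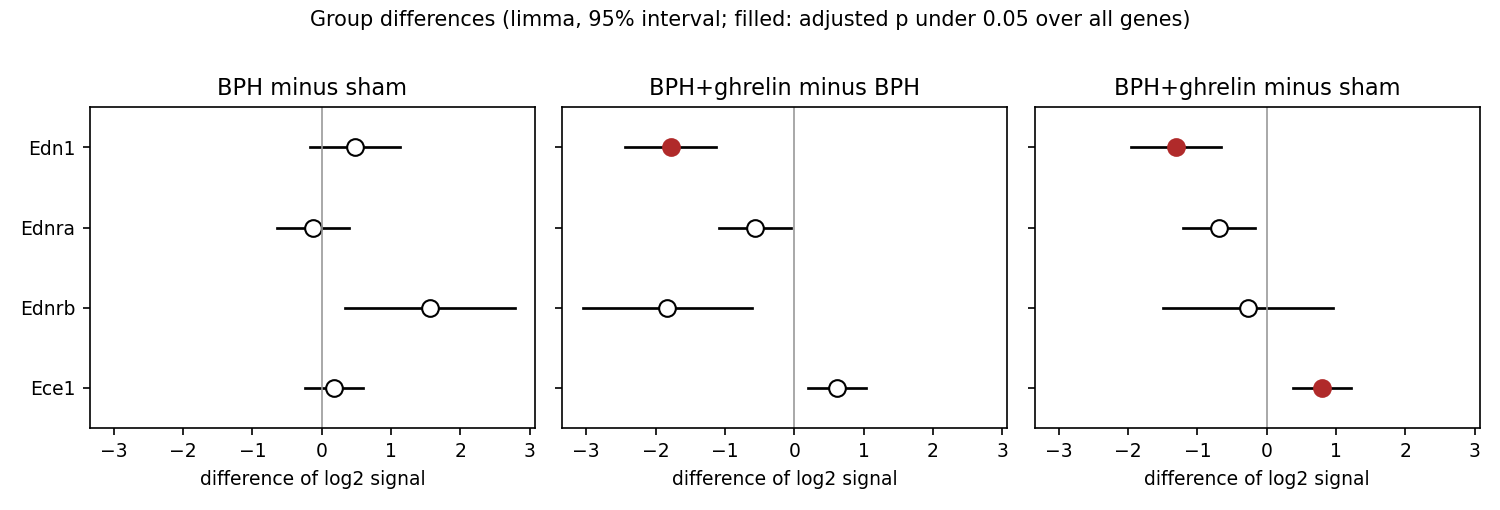
Difference of log2 signal (x axis) of the 4 tested endothelin genes (y axis) in the 3 comparisons, with 95% intervals from limma and filled points where the adjusted p was under 0.05. Edn1 was called in BPH+ghrelin against BPH (-1.78) and against sham (-1.30), Ece1 in BPH+ghrelin against sham (0.80), and 0 genes in BPH against sham.

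Over the members, 4 of 6 genes passed the filter on dim probes in each comparison, Edn1, Ednra, Ednrb and Ece1. In BPH+ghrelin against BPH, 1 of the 4 was called (Edn1), against 1.48% of 19749 genes. Among all genes, 0.987% were called lower. The arrays of the 2 groups did not overlap for any of the 4, as for 39.2% of all genes tested, with 3 lower (19.3% of all genes) and Ece1 higher (19.8%), and all 4 had an unadjusted p under 0.05, against 21.1%. The median log2 difference of the 4 was -1.17, and that of all genes tested was 0.015. Against sham, 2 of the 4 in BPH+ghrelin were called (Edn1 lower and Ece1 higher), against 6.3% of 19197 genes (3.3% lower and 3% higher). For 3 of the 4 (Edn1, Ednra and Ece1) the groups did not overlap and the unadjusted p was under 0.05, against 30.4% and 23.7% of all genes. In BPH against sham, limma called 0 of the 4, against 4.33% of 19552 genes, with 1 (Ednrb) at an unadjusted p under 0.05 and without overlap, against 26.5% and 31.3% of all genes. In a test for any difference among the 3 groups, limma called Edn1 (adjusted p = 0.0241) and none of Ece1 (adjusted p = 0.0644), Ednrb (adjusted p = 0.104) or Ednra (adjusted p = 0.141), with 6.62% of 20113 genes called.

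**Figure D4:**
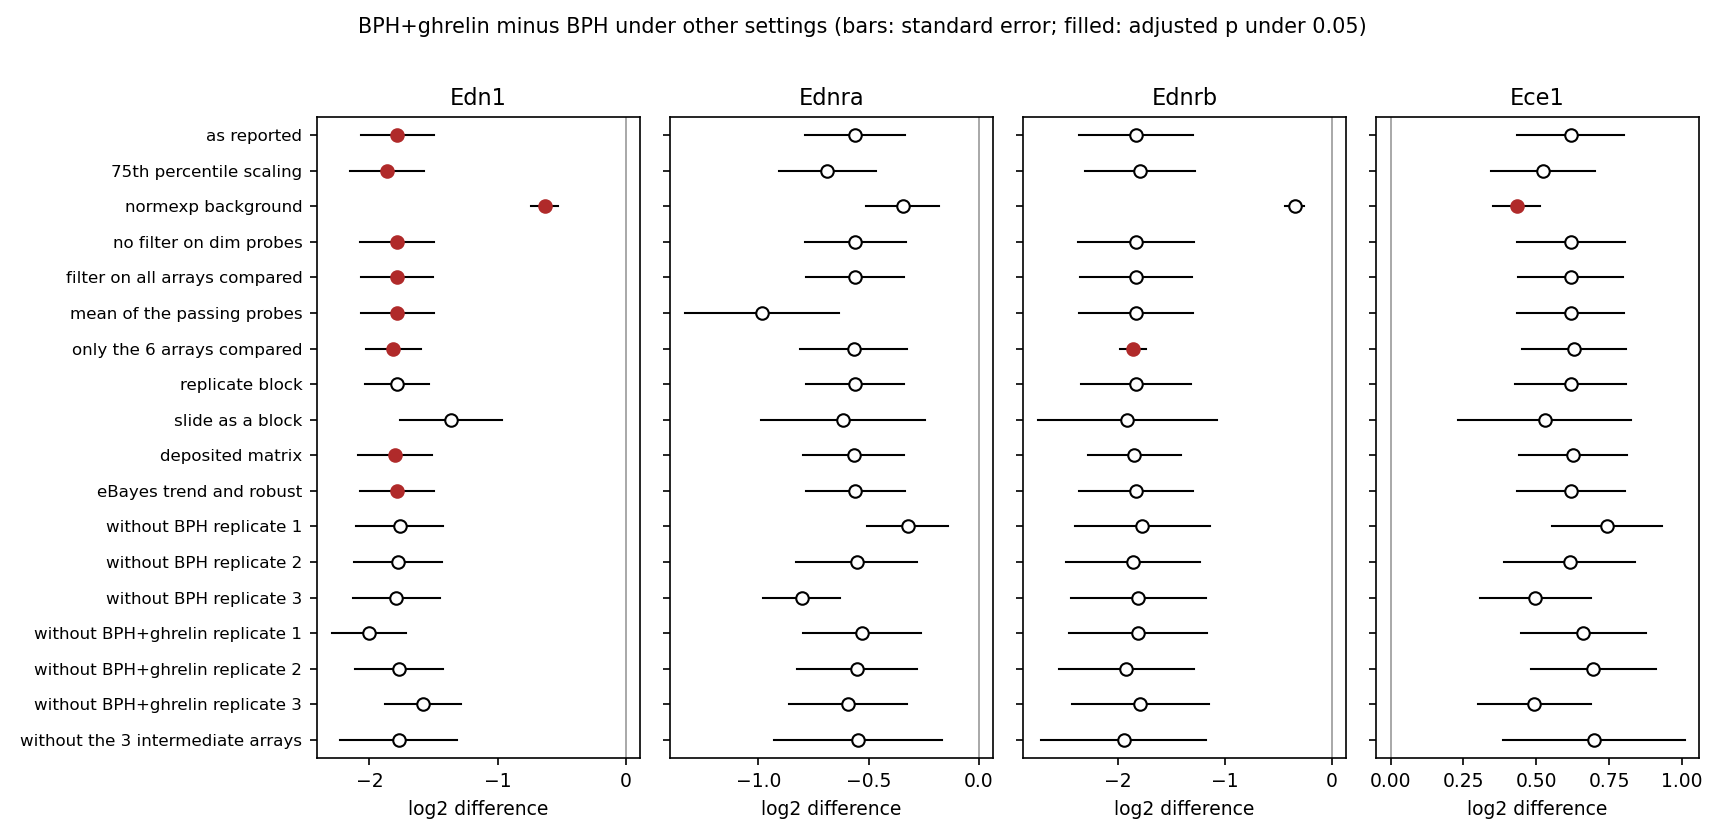
Log2 difference of BPH+ghrelin from BPH (x axis, one scale per panel) for Edn1, Ednra, Ednrb and Ece1 under each processing setting (y axis), with standard errors as bars and filled points where the adjusted p was under 0.05. Edn1, Ednra and Ednrb stay below 0 and Ece1 above 0 in every setting shown, and the filled points of Edn1 become open in the replicate block, in the slide block and whenever an array is left out. With the mean of the passing probes, Ednra includes its dimmer probe, which passed the filter through the BPH arrays alone.

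The proteases that make and break down endothelin were described with a list of 11 genes, 10 of which had a probe. Mme encodes neprilysin, a membrane protease that degrades endothelin and other peptides. The log2 signals of Mme were 15.90, 15.82 and 15.66 in BPH, 15.09, 14.86 and 14.51 in BPH+ghrelin and 14.70, 14.98 and 14.86 in sham. The BPH arrays lay above all other arrays, and BPH+ghrelin and sham overlapped. Mme was higher in BPH than in sham by 0.95 (SE 0.17, limma adjusted p = 0.0260) and lower in BPH+ghrelin than in BPH by a difference of -0.98 (SE 0.17, adjusted p = 0.0390), both near 2-fold (1.93-fold and 1.97-fold). Both comparisons share the BPH arrays. The call against sham was kept without sham array 1 or sham array 2 and lost without any other array (adjusted p up to 0.133), and the call between BPH+ghrelin and BPH was kept without BPH array 3 (adjusted p = 0.0499) and lost without any of the other 5 arrays (up to 0.207). With scaling to the 75th percentile in place of quantile normalization, the differences of Mme were 0.42 against sham (adjusted p = 0.280) and -0.49 between BPH+ghrelin and BPH (adjusted p = 0.242), so that both calls were lost. With the scan as a block both were lost as well, at 0.55 (adjusted p = 0.851) and -0.70 (adjusted p = 0.414).

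Mme was the only gene called in this list, as 1 of 7 tested in BPH against sham (4.33% of all genes) and 1 of 8 tested in BPH+ghrelin against BPH (1.48% of all genes). Limma called 0 of 7 in BPH+ghrelin against sham, where 0 had an unadjusted p under 0.05 (6.3% and 23.7% of all genes). Ecel1, a relative of the converting enzyme, differed by -0.91 in BPH against sham (adjusted p = 0.0723) and by 0.93 in BPH+ghrelin against BPH (adjusted p = 0.0958), opposite in sign to Mme. Leaving out BPH+ghrelin array 1 brought Ecel1 to 1.23 with an adjusted p of 0.0390 in BPH+ghrelin against BPH. Furin, which cuts the endothelin precursor first, differed by 0.32 in BPH+ghrelin against sham (adjusted p = 0.628), and Ctsa, a lysosomal carboxypeptidase that inactivates endothelin-1, by -0.41 in BPH+ghrelin against BPH (adjusted p = 0.202). The median differences of the list were 0.11, 0.10 and 0.024 in BPH against sham, BPH+ghrelin against BPH and BPH+ghrelin against sham, beside medians of 0.039, 0.015 and 0.041 over every gene that passed the filter.

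Coupling of the receptors to G proteins, phospholipase C, calcium release and desensitization was described with 27 genes, 25 of which had a probe. Rgs5, a regulator that shortens signaling of Gq and Gi proteins in vascular mural cells, had log2 signals of 5.74, 5.72 and 6.01 in BPH, 4.81, 4.70 and 5.10 in BPH+ghrelin and 5.46, 5.48 and 5.36 in sham. All BPH+ghrelin arrays lay below all sham arrays, and those below all BPH arrays. Rgs5 was 1.94-fold lower in BPH+ghrelin than in BPH (log2 difference -0.96, SE 0.15, limma adjusted p = 0.0295) and lower than in sham by a difference of -0.57, with an adjusted p of 0.0584 (-0.71 and 0.0301 with scaling to the 75th percentile, and 0.0485 with a filter on all arrays compared). The call against BPH was kept without BPH array 3 (adjusted p = 0.0446) and lost without any of the other 5 arrays (up to 0.149). With normexp the difference of Rgs5 was -0.39 (adjusted p = 0.0298), and with the scan as a block it was -1.02 (adjusted p = 0.266).

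Trpc6 encodes a calcium-permeable channel that opens downstream of phospholipase C. Its log2 signals were 5.66, 5.70 and 6.12 in BPH, 6.06, 5.89 and 5.99 in BPH+ghrelin and 5.09, 5.44 and 5.02 in sham. The sham arrays lay below all 6 arrays of the castrated and dihydrotestosterone-treated rats, which overlapped with each other. Relative to sham, Trpc6 was 1.74-fold higher with BPH+ghrelin (log2 difference 0.80, SE 0.17, limma adjusted p = 0.0355), and the difference of BPH from sham was 0.65 (SE 0.17, adjusted p = 0.0715). The call against sham was kept without sham array 2 (adjusted p = 0.0176) and lost without any of the other 5 arrays (up to 0.134). The call was also lost with normexp (0.32, adjusted p = 0.0694), with scaling to the 75th percentile (0.65, adjusted p = 0.0631) and with the scan as a block (0.67, adjusted p = 0.301). Without sham array 2, BPH differed from sham by 0.78 (adjusted p = 0.0439).

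In this list, 1 of 24 genes tested was called in BPH+ghrelin against BPH (Rgs5), beside 1.48% of all genes, and 1 of 23 in BPH+ghrelin against sham (Trpc6), beside 6.3%. The genes next to Rgs5 by p in BPH+ghrelin against BPH were Itpr1, an intracellular calcium release channel (-0.40, adjusted p = 0.158), and Grk2, a kinase that desensitizes receptors (0.39, adjusted p = 0.159). Against sham, Grk2 in BPH+ghrelin differed by 0.50 (adjusted p = 0.0662), and it was called without sham array 2 (0.57, adjusted p = 0.0383) and with normexp (0.45, adjusted p = 0.0235). Of the 24 genes tested in BPH against sham, limma called 0, and 9 had an unadjusted p under 0.05 (26.5% of all genes did), among them Plcb3, a phospholipase C (0.67, adjusted p = 0.0834), and Rgs2, a regulator of Gq signaling (0.80, adjusted p = 0.102). Rgs2 was called without sham array 2 (1.06, adjusted p = 0.0278) and Plcb3 without sham array 1 (0.79, adjusted p = 0.0387). The median difference of the list was 0.29 in BPH against sham, -0.22 in BPH+ghrelin against BPH and -0.013 in BPH+ghrelin against sham.

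**Figure D5:**
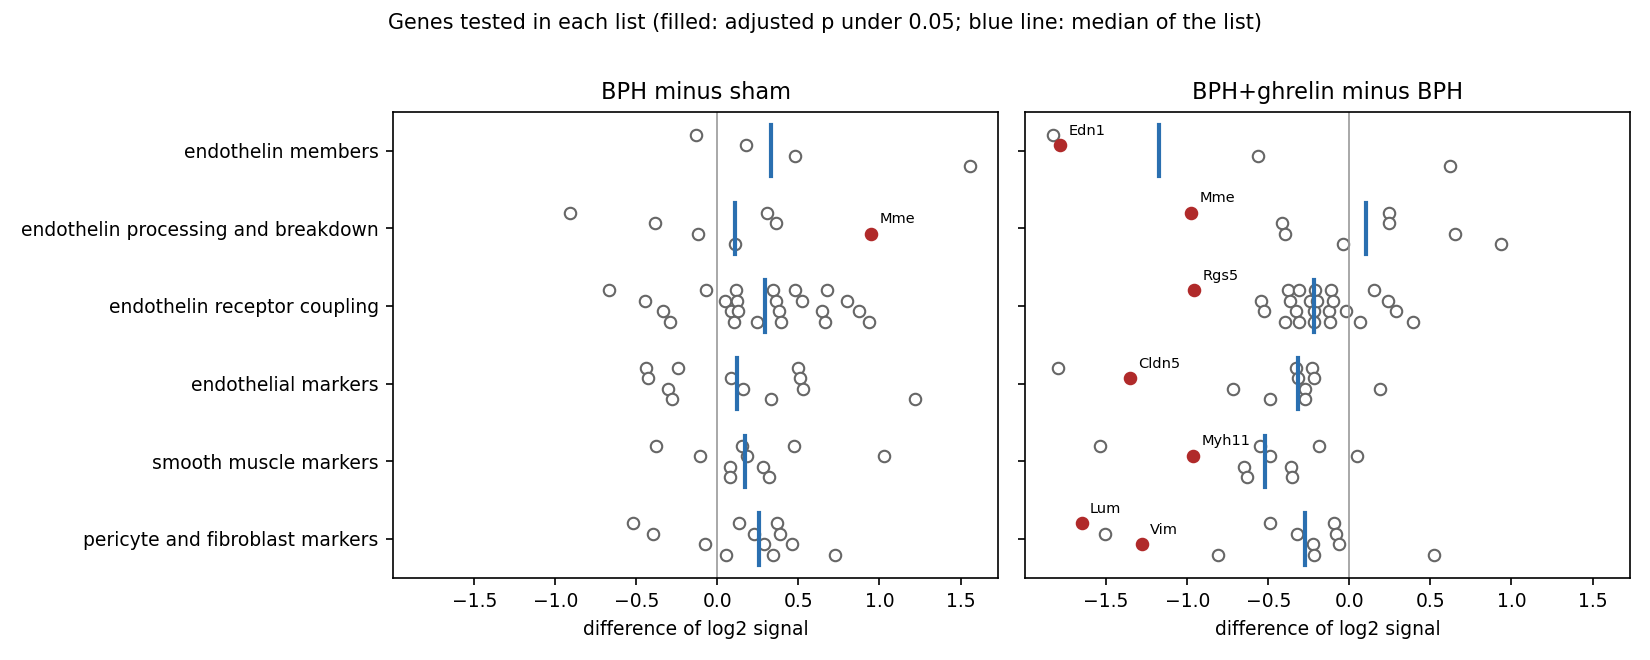
Difference of log2 signal (x axis) of each tested gene in 6 lists (y axis) for BPH against sham and BPH+ghrelin against BPH, with filled, named points where the adjusted p was under 0.05 and the list median as a blue line. For ghrelin against vehicle, the medians of the endothelin members (-1.17), receptor coupling (-0.22), endothelial (-0.31), smooth muscle (-0.52) and pericyte and fibroblast (-0.27) lists lie below 0. The endothelial list there includes Tek, which passed the filter through the BPH arrays alone.

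Endothelial, smooth muscle and other stromal cells and the glandular epithelium can make or receive endothelin, and their markers were read beside these results. Of 15 endothelial markers, 12 had a probe, and Tie1, Tek and Nos3 were well above background on 3, 4 and 5 of 9 arrays. The summed endothelial signal was 10.09 to 10.72 in BPH, 9.99 to 10.11 in BPH+ghrelin and 10.56 to 10.80 in sham (log2). Over all genes tested in BPH+ghrelin against BPH, 1.48% were called and the median difference was 0.015. In that comparison, 10 of 11 tested endothelial markers had a negative difference (median -0.31). Of the 11, 1 was called, Cldn5, a tight junction protein (-1.35, SE 0.20, limma adjusted p = 0.0272). Among the 10, Tek was well above background on 3 BPH arrays and 0 BPH+ghrelin arrays. It passed the filter through BPH alone, so its sign adds nothing to this count or median. Cldn5 read 5.84, 5.48 and 5.19 in BPH, 4.46, 3.91 and 4.07 in BPH+ghrelin and 5.04, 5.02 and 4.87 in sham, with BPH+ghrelin below all other arrays. Against sham, 8 of 10 were negative in BPH+ghrelin (median -0.57, beside 0.041 over all genes). Pecam1 was called there (-0.62, adjusted p = 0.0433), beside 6.3% of all genes. In BPH against sham, limma called 0 of 12, with 3 at an unadjusted p under 0.05 (median 0.12). The shares over all genes were 4.33% and 26.5%. Of the arrays compared, Cldn5 was still called without BPH array 3 or BPH+ghrelin array 1 and Pecam1 without sham array 2, whereas leaving out any other one ended the call. Both calls were lost with the scan as a block (adjusted p = 0.313 and 0.294), and that of Cldn5 with normexp (adjusted p = 0.0587). The part of endothelial cells in the Edn1, Ednra and Ednrb values was not tested.

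Smooth muscle markers (10 of 11 with a probe) had a median difference of -0.52 in BPH+ghrelin against BPH, with 9 of 10 negative. The median over all genes tested was 0.015. Of the 10, 1 was called, beside 1.48% of all genes, the myosin heavy chain Myh11 (-0.96, SE 0.11, limma adjusted p = 0.0160). Myh11 read 11.18, 11.42 and 11.40 in BPH, 10.37 in each BPH+ghrelin array and 11.45, 11.47 and 11.40 in sham. Against sham, Myh11 was lower by a difference of -1.07 (adjusted p = 0.00244), and without any 1 of the 6 arrays this call was kept (adjusted p = 0.00363 to 0.0216), whereas it was lost with the scan as a block (adjusted p = 0.0700) and without the 3 arrays that lay between the others (adjusted p = 0.430). The summed smooth muscle signal overlapped between groups, at 15.29 to 16.06 in BPH, 15.47 to 15.59 in BPH+ghrelin and 15.44 to 15.85 in sham. Of 12 pericyte and fibroblast markers, 11 were negative in BPH+ghrelin against BPH (median -0.27). In that comparison 2 were called, beside 1.48% of all genes, the matrix proteoglycan Lum (-1.65, adjusted p = 0.0240) and Vim (-1.28, adjusted p = 0.0252). Against sham, Lum (-1.42, adjusted p = 0.0145) and Kcnj8, a potassium channel of pericytes (-1.01, adjusted p = 0.0322), were called, beside 6.3% of all genes. In BPH against sham, limma called 0 of 10 smooth muscle and 0 of 12 pericyte and fibroblast markers, beside 4.33% of all genes. An unadjusted p under 0.05 was found for 1 and 3 of them, beside 26.5% of all genes. Leaving out BPH array 3 kept the calls of Myh11, Lum and Vim against BPH, and leaving out BPH+ghrelin array 1 kept that of Myh11, whereas any other omission ended them. Against sham, the call of Lum was lost without BPH+ghrelin array 2 or sham array 3, and that of Kcnj8 was kept without sham array 1 or 2 and lost without any other array. With the scan as a block, the calls of Myh11, Lum and Vim against BPH and those of Lum and Kcnj8 against sham were lost too (adjusted p = 0.144 to 0.247). The part of these cells in the endothelin results was not tested.

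The summed signal of 12 luminal and secretory epithelial markers was 17.90 to 18.13 in BPH, 17.92 to 18.11 in BPH+ghrelin and 18.53 to 18.58 in sham (log2), so that both groups with BPH overlapped below sham. Their median difference was -0.16 in BPH+ghrelin against BPH and 0.040 in BPH against sham. Pbsn, the secreted protein probasin, read 16.16, 16.41 and 16.30 in sham, 14.11, 13.72 and 13.11 in BPH and 14.46, 14.40 and 14.34 in BPH+ghrelin. It was lower than in sham by differences of -2.65 in BPH and -1.89 in BPH+ghrelin (limma adjusted p = 0.00189 and 0.00462), and both calls were lost with the scan as a block. Msmb, a secreted protein of the gland, read 16.22, 15.99 and 16.11 in sham, 12.81, 11.98 and 4.79 in BPH and 8.41, 7.37 and 3.45 in BPH+ghrelin. Its difference from sham was -6.25 in BPH (adjusted p = 0.115) and -9.70 in BPH+ghrelin (adjusted p = 0.0345), a call that was lost without any 1 of the 6 arrays. The part of the epithelium in the endothelin results was not tested.

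Of the other cell markers, the leukocyte gene Ptprc was lower in BPH+ghrelin than in BPH by a difference of -0.82 (limma adjusted p = 0.0368), and this call was lost without any of the 6 arrays other than BPH array 3 and with the scan as a block (adjusted p = 0.282). Limma called 0 basal epithelial, 0 Schwann and nerve, 0 striated muscle and 0 seminal vesicle markers in that comparison, of 5, 7, 8 and 5 tested. Among these, 1, 1, 2 and 0 had an unadjusted p under 0.05. Over all genes, 1.48% were called and 21.1% had such a p. Against sham, 4.33% of all genes tested were called in BPH and 6.3% in BPH+ghrelin, with median differences of 0.039 and 0.041. Of 6 seminal vesicle and coagulating gland markers tested against sham, 4 had a negative difference in each group with BPH and 2 (Svs5 and Svs6) a positive one. In BPH, 3 were called lower (Svs3a, Svs3b and Svs4), and in BPH+ghrelin Semg1 was called in addition. Their median difference was -4.45 in BPH, which was -2.89 without BPH array 3 and -2.01 with normexp, and -5.45 in BPH+ghrelin, which was -2.10 with normexp. With the scan as a block all 3 calls in BPH were lost and Svs3b alone was kept in BPH+ghrelin, and the call of Semg1 was lost without any 1 of the 6 arrays. Svs3b was well above background on 3 sham arrays, 1 BPH array and 0 BPH+ghrelin arrays, so it passed the filter through sham. The calls of Svs3b and its part in the medians are therefore not read as results. Of 8 striated muscle markers tested against sham, 6 were negative in BPH and 5 in BPH+ghrelin, with Ckm and Tnni2 called lower in both and 0 called higher. The scan as a block ended these calls too. Leaving out BPH array 2, BPH array 3 or sham array 3 ended the calls of Svs3a and Svs4 in BPH, and BPH array 2 that of Tnni2. The call of Svs4 in BPH was also lost without a filter on dim probes (adjusted p = 0.0597) and with the 6 arrays compared alone (0.0824). In BPH+ghrelin, the call of Svs4 was lost without BPH+ghrelin array 2 or 3 or sham array 3, and of the 6 omissions that of Tnni2 was kept only without BPH+ghrelin array 3 or sham array 2. The part of these tissues in the comparisons with sham was not tested.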

How the data were processed

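The intensities deposited by the authors were the processed signals of the scanner software, with the background subtracted, linear, and without any normalization across arrays. The authors also deposited a matrix of log2 values that they had quantile normalized, which was used only as an alternative. Outlier spots (313 to 741 per array) were removed, spots of a probe were averaged, and the 9 arrays were quantile normalized on the log2 scale. Of 30356 probes, 17998 were named through RefSeq accessions (GRCr8 gene table, used for names and promoters only). Differences were taken within a probe, and levels of different probes were compared only to choose the brightest probe of a gene. The number of arrays limits the precision.

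Probes entered a test if at least 3 of its 6 arrays showed them well above background, and the brightest such probe stood for its gene. limma 3.58.1 in R 4.3.3 was fitted to 3 groups and 9 arrays, with Benjamini-Hochberg adjustment over all genes tested, and checked on simulated data. With 3 arrays per group, the smallest p of an exact two-sided permutation test is 0.1. Members and gene lists were chosen with earlier results of these data known. Named genes were all members, genes called in a list, and up to 3 genes with the smallest p in each of both endothelin lists and comparisons. Arrays with the same scan time in the file headers were taken as 1 scan or slide. The arrays came from prostates of 3 rats per group by the study's text, and which of the 8 rats per group they were is not given in the sources used here. The study's text gives the dose, route and duration of ghrelin in different ways, and its methods were followed. The promoter of Edn3 was not analysed here, and some genes that these rules name are not reported here. Alternatives were another scaling, normexp background correction (offset 50), other filters, the mean of probes, 6 arrays, a replicate block, a slide block, the deposited matrix, another eBayes setting and each array left out.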

Additional observations from a re-analysis of the deposited data

How the results depend on the processing

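The directions of the 4 tested genes in BPH+ghrelin against BPH were the same in all 17 alternatives, whereas the number called was small and moved. In 1 of them, the mean of probes, Ednra takes in its dimmer probe. That probe passed the filter through the BPH arrays alone, so this setting adds nothing for Ednra. In that comparison, 1 endothelin gene was called as reported, 2 with normexp (Ece1 in addition, 0.43, adjusted p = 0.0402), 2 with the 6 arrays compared alone (Ednrb in addition), 0 with the slide as a block (Edn1 -1.36, adjusted p = 0.354) and 0 to 0 without 1 array. Without the 3 arrays that lie between the others of their group, an alternative chosen after seeing the data, 0 were called (Edn1 -1.77, unadjusted p = 0.00889), with 4 arrays left in each comparison. In BPH+ghrelin against sham, 2 were called as reported, 1 with scaling to the 75th percentile (Edn1), 1 with normexp (Ece1), 0 without a filter on dim probes, 1 with the 6 arrays compared alone (Ednra, adjusted p = 0.0451), 0 with the slide as a block, 0 without the 3 arrays that lie between the others, and 0 to 2 without 1 array (Edn1 and Ednrb without sham array 2). In BPH against sham, 0 were called as reported and 0 to 1 without 1 array. For any difference among the 3 groups, 1 was called as reported, 2 with normexp, 2 with a filter on all arrays compared, 0 with the slide as a block, 0 without the 3 arrays that lie between the others, and 0 to 3 without 1 array. Signs reversed for differences that were not called: Ednra in BPH against sham was 0.48 with the mean of its probes (the dimmer one was not well above background in sham) and -0.37 to 0.11 without 1 array, Edn1 in BPH against sham was -0.10 and Ecel1 0.062 with the slide as a block, Ednrb in BPH+ghrelin against sham was -0.997 to 0.25 without 1 array, and Furin in that comparison was -0.094 to 0.67. The cause of these moves was not tested. Dim probes limit Edn3, the dimmer Ednra probe and Ednrb on sham array 2, and fold sizes of Edn1 and Ednrb shrink where normexp adds its offset to low signals.

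The replicate numbers of the labels did not pair the arrays: the correlations of same-numbered deviations were -0.13 to 0.25, and 0, 2 and 2 of 6 arrays correlated best with their own number in the 3 comparisons. With the replicate block, 0 endothelin genes were called in BPH+ghrelin against BPH (Edn1 -1.78, adjusted p = 0.0658), 0 in BPH+ghrelin against sham, 0 in BPH against sham and 1 for any difference. Of the calls of Mme, Rgs5, Trpc6, Cldn5, Pecam1, Myh11, Lum, Vim, Kcnj8 and, against BPH, Ptprc in the report, the replicate block kept that of Myh11 against sham (adjusted p = 0.0164) and ended the others (Mme 0.0619 against sham and 0.0873 between BPH+ghrelin and BPH).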

Other observations

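The genes whose log2 signals over the 9 arrays were most like those of each endothelin gene were searched among 11090 genes that were well above background on at least 6 of 9 arrays. For Edn1 they included Pdlim7 (Pearson r 0.981) and the complement gene C1qa (0.981), and 114 genes had an r above 0.9. For Ednra they were Bnip3l (0.986) and the interferon-induced genes Usp18 (0.986) and Eif2ak2 (0.982), with 147 genes above 0.9. For Ednrb they included Tc2n (0.991) and Snx4 (0.989), with 438 genes above 0.9. For Ece1 they included Rpl27 (0.977) and Cib1 (0.954), with 18 genes above 0.9. The 9 points share scans and groups, and the values are descriptions over 9 arrays.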
